A study of Mus musculus with 16 samples.

Results

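The genes described here are 9 genes of red cell formation: the transcription factor genes Gata1 and Klf1, the erythropoietin receptor gene Epor, the carbonic anhydrase genes Car1 and Car2, the Rhesus genes Rhag and Rhd, the anion exchanger gene Slc4a1 and the haem synthesis gene Alas2. They were chosen by gene symbol, and each was read on every array by at least 1 probe, out of 20665 symbols on the array. Together they have 10 probes, 2 of them for Car1, and all 9 genes were well above background on all 16 arrays.

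The study profiled CD11b+ cells, isolated from spleen or bone marrow, on 16 one-colour arrays: 4 genotypes in 2 tissues on 2 diets, each combination read once. The mice are WT, STAT4-/-, STAT6-/- or HDC-/-, where STAT4 and STAT6 are transcription factors of cytokine signalling and HDC makes histamine. All mice are labelled male, each RNA came from a pool of 5 mice, and the high-fat diet (HFD) was given for 3 months as a model of atherosclerosis against a normal control diet. Strain, age, the deleted part of each gene and whether spleen and marrow came from the same mice are not given in the sources used here. Because no combination was repeated, the spread in most tests below is how the diet difference varies among genotypes within a tissue. It leaves out how a tissue difference varies among genotypes, so the p-values do not measure that variation. For diet by genotype the spread is what all pairwise terms leave, and for the paired tissue test that of the tissue difference over pairs. The number of arrays limits the precision. CD11b, encoded by Itgam, is an integrin carried by monocytes, macrophages and granulocytes, and Itgam read 3.13 to 6.06 on the 16 arrays, in log2 units over the 75th percentile of each array, the scale of every level below.

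Red cell precursors arise in the marrow and, in mice, also in the red pulp of the spleen. GATA1 and KLF1 switch on the genes of the lineage, erythropoietin acts through its receptor to keep the precursors alive, and haem and globin are built up in the last divisions, when ALAS2 supplies the first step of haem synthesis and the exchanger SLC4A1 (band 3) fills the membrane. Red cell precursors are not cells that CD11b is known to mark.

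Some arrays stand apart or do not bear out their labels. Hdc was low on the 4 HDC-/- arrays (0.98 to 1.92, against 4.06 to 5.79 on 11 of the others). The brightest Stat6 probe read 2.54 to 3.04 on the STAT6-/- arrays, inside the 2.34 to 4.14 of the others. A second probe did likewise (-2.46 to -1.38, against -2.69 to -0.27), and the dimmest read -5.13 to -3.95 against -4.13 to -2.40. The arrays labelled STAT4-/- had no low Stat4 signal (0.41 to 3.51, against -0.89 to 1.33), so directions for STAT4-/- and STAT6-/- rest on the labels. The 3 Y-linked genes averaged -8.39 to -5.57 on the control-diet arrays of STAT4-/- and HDC-/- mice, in both tissues, and -0.61 to 0.35 on the other 12 arrays. Gata1 and Alas2 lie on the X chromosome and the other 7 genes on autosomes. The arrays lie on 4 slides, so both diets of a genotype and tissue share a slide, while spleen and marrow, and STAT6-/- or HDC-/- against WT, lie on different slides. The share of probes well above background ran from 60.4% to 85.6% and was lowest on the slide with the marrow of STAT6-/- and HDC-/- mice.

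The regulators varied widely. Gata1, the master transcription factor of the red cell lineage, ranged from -1.41 (WT marrow, HFD) over a median of 0.50 to 2.98 (STAT6-/- spleen, control diet), a 20.9-fold span. Klf1, which drives globin and membrane genes, ranged from -2.70 over -0.28 to 2.87 on the same pair of arrays, a 47.7-fold span. Epor ranged from -3.00 over -1.02 to 1.79, again between those arrays. All 3 regulators were thus lowest in WT marrow on the high-fat diet and highest in STAT6-/- spleen on the control diet.

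The enzymes and Rhesus proteins had the same extremes. Car1, a cytosolic carbonic anhydrase abundant in red cells, spanned -1.98 to 2.89 with a median of -0.04. Its dimmer probe followed the brighter one across the 16 arrays (Pearson r 0.997), with a gap of 0.73 to 1.22. Car2, a carbonic anhydrase also found in other cells, spanned 0.27 to 5.10 with a median of 2.43. Rhag, the Rhesus-associated glycoprotein, spanned -4.52 to 0.38 and Rhd -1.81 to 3.72. WT marrow on the high-fat diet was the lowest of the 16 arrays for these 4 genes and the 3 regulators, 7 of the 9, and 4.13% of all features had that array as their lowest.

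Alas2 and Slc4a1 had a different floor. Alas2 ranged from -3.70 over a median of -0.13 to 3.27, a 126-fold span, and Slc4a1 from -2.59 over 0.93 to 3.22, a 56.1-fold span. Their lowest array was the spleen of HDC-/- mice on the control diet, as it was for 9.5% of all features. Their highest array was the one shared by all 9 genes, STAT6-/- spleen on the control diet, which was the highest of 16 for 3% of all features.

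**Figure D1:**
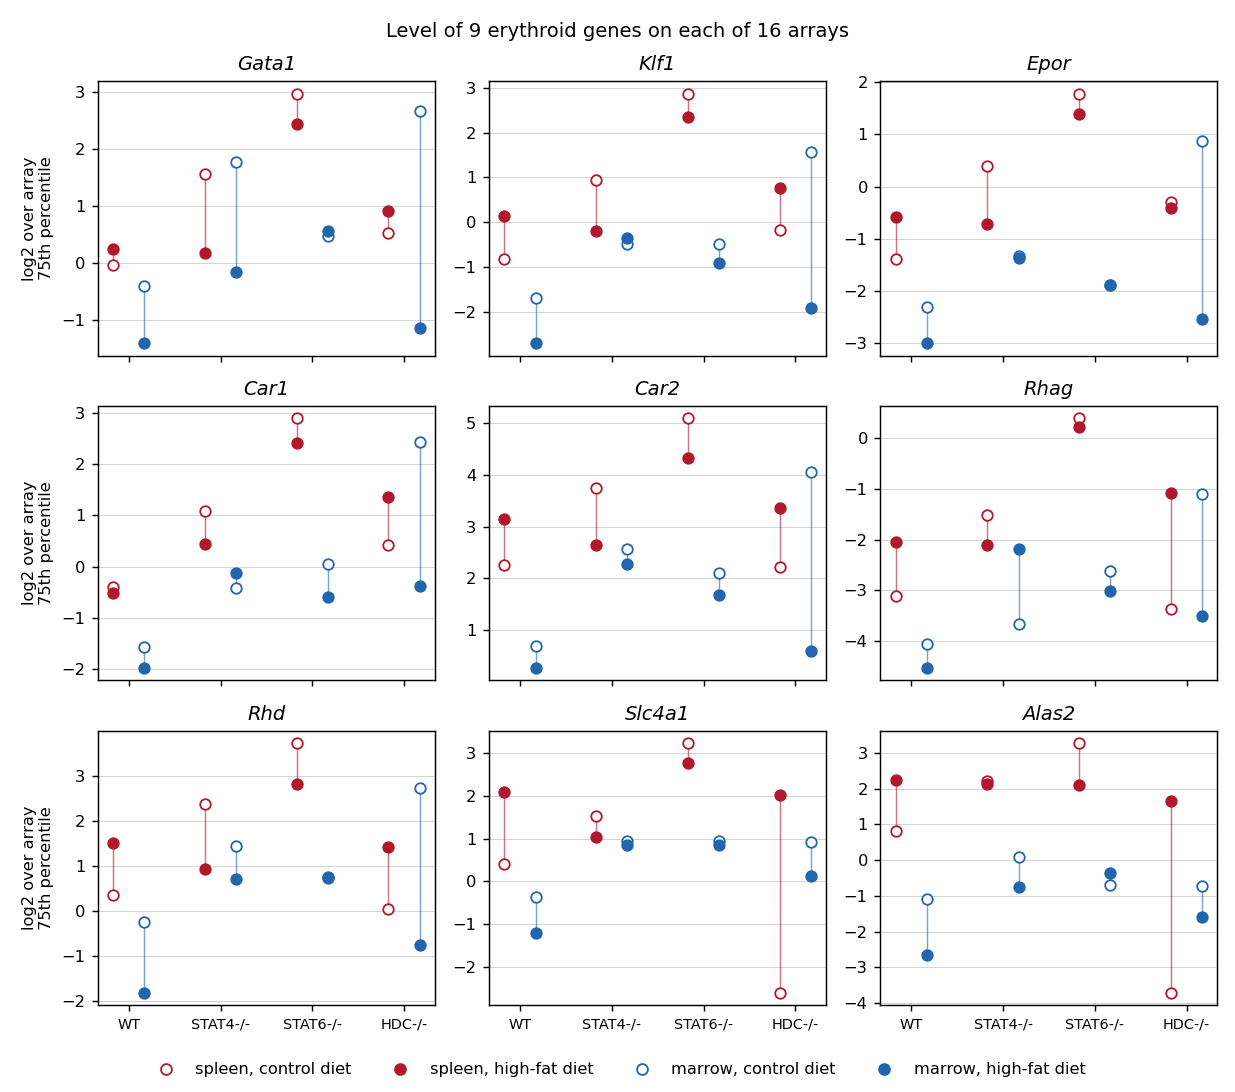
Level of each of the 9 genes (log2, 75th percentile of the array at 0) on 16 arrays, by genotype; red is spleen, blue is marrow, open points are control diet and filled points high-fat diet, each point 1 array, with a line joining the diets of a genotype and tissue. The open red STAT6-/- point is the highest in every panel, and the open red HDC-/- point falls to -3.70 for Alas2 and -2.59 for Slc4a1.

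The 9 genes moved together over the arrays. Pearson r between pairs of them over the 16 arrays ran from 0.53 (Car1 with Alas2) over a median of 0.89 to 0.98 (Car2 with Klf1). The arrays share slides and scaling, and r is given as a description. Among Gata1, Klf1, Epor, Car1, Car2, Rhag and Rhd it was 0.78 to 0.98 over 21 pairs. Alas2 with Slc4a1 gave 0.91, and either of these with one of the other 7 gave 0.53 to 0.81. Without the HDC-/- spleen array on the control diet, the last range was 0.61 to 0.91 over 15 arrays. The split into 7 and 2 genes was made after these values were seen.

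Among the named genes whose levels followed the mean of the 9 most closely were Cldn13 (r 0.990), Btnl10 (0.983), Kel (0.983), Aldh1a1 (0.980), Add2 (0.980), Slc43a1 (0.970), Abcg4 (0.968), Nxpe2 (0.964) and Trim10 (0.962), over 16 arrays. Kel encodes a red cell blood group protein and Add2 the beta subunit of adducin in the red cell skeleton.

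The promoters of 4 of the 9 genes are shown. They are those of both transcription factors, of the receptor gene that GATA1 is known to drive, and of Alas2. Alas2, like Slc4a1, parts from the other genes in HDC-/- spleen on the control diet. The part of the promoters in the correlation of the genes was not tested. Each promoter is the 250 bases before the annotated start, written in the direction of the gene, from RefSeq on GRCm38.p6. Capitals mark matches to the GATA motif (GATA with A or T before it and A or G after it, either strand) or to the CACCC-type motif CCNCNCCC that KLF factors bind (either strand), and overlapping CACCC-type matches run together.
Gata1, chrX:7967911-7968160, minus strand: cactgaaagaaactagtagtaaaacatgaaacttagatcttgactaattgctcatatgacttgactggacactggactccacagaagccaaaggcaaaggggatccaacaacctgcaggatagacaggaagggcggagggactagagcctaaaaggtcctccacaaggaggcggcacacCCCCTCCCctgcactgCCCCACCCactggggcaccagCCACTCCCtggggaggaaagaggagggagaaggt
Klf1, chr8:84901732-84901981, plus strand: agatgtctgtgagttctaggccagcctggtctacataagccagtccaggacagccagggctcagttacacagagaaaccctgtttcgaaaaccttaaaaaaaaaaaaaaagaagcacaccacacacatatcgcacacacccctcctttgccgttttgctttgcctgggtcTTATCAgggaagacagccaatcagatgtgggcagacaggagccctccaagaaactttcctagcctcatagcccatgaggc
Epor, chr9:21963577-21963826, minus strand: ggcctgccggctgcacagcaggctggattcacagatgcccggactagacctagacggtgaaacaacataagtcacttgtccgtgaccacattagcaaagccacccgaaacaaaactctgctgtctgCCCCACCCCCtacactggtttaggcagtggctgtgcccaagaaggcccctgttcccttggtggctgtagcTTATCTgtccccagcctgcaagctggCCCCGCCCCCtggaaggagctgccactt
Alas2, chrX:150547167-150547416, plus strand: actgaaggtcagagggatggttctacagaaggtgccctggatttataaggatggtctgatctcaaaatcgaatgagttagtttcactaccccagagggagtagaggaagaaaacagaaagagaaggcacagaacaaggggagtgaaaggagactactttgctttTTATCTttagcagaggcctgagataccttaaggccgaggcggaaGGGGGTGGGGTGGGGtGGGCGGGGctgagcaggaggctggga
In windows from 250 bases before to 50 after the start, a promoter was at hand for 6 of the 9 genes. A GATA match was found in 5 of the 6, starting 80 bases before the start in Klf1, 54 in Epor, 86 in Alas2, 31 in Rhag and 43 in Rhd, and 29.8% of 32851 mouse promoters of that length held one. None was found in that window of Gata1. A CACCC-type match was found in 4 of the 6 (Gata1, Epor, Alas2 and Rhd), and 49.5% of all promoters held one. A match describes letters in a sequence and is not a measured binding site.

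Which of the genes differ between spleen and marrow? Of the 9 genes, 6 were higher in spleen and none was lower by limma (adjusted p under 0.05 over 28783 features), and 14.9% of all features were called higher, 17.1% lower and 32% in either direction. Epor read -1.38 to 1.79 with a median of -0.35 in spleen (8 arrays) and -3.00 to 0.87 with a median of -1.88 in marrow (8 arrays), and its change was 1.71 (SE 0.38, 3.27-fold, adjusted p 0.0083). Alas2 read -3.70 to 3.27 with a median of 2.11 in spleen and -2.65 to 0.10 with a median of -0.74 in marrow, a change of 2.31 (SE 0.59, 4.96-fold, adjusted p 0.0154). The ranges of the tissues overlapped for both genes.

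The other 4 called genes were Klf1 with a change of 1.61 (SE 0.40, adjusted p 0.0135), Car2 with 1.57 (SE 0.40, adjusted p 0.0147), Rhag with 1.50 (SE 0.42, adjusted p 0.0222) and Car1 with 1.28 (SE 0.33, adjusted p 0.0153). Rhd (1.20, SE 0.43, adjusted p 0.0555), Slc4a1 (0.92, SE 0.49, adjusted p 0.179) and Gata1 (0.80, SE 0.39, adjusted p 0.138) did not pass. The median of the 9 was 1.50 and that of all features -0.06. In bulk RNA, fewer cells of a type and less RNA per cell cannot be told apart, which holds for every level here. Spleen and marrow lie on different slides throughout, so tissue and slide cannot be told apart. With spleen and marrow arrays of the same genotype and diet taken as pairs, 4 of the 9 genes passed in limma: Epor (adjusted p 0.0224), Alas2 (0.0332), Car2 (0.0411) and Klf1 (0.0482), while Car1 (0.0678) and Rhag (0.0684) did not.

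No gene was higher in spleen in all 8 spleen and marrow pairs of the same genotype and diet, a pattern that 9.21% of all features had, and none had all 8 spleen arrays above all 8 marrow arrays, as 1.65% of all features did. In WT, STAT6-/- and in HDC-/- on the high-fat diet all 9 genes were higher in spleen, by a median of 0.92 in WT on the control diet, 2.84 in WT on the high-fat diet, 2.99 and 2.65 in STAT6-/- on control and high-fat diet, and 2.18 in HDC-/- on the high-fat diet. On the control diet HDC-/- had the opposite order, with all 9 genes lower in spleen (differences of -3.51 to -1.17). Of the STAT4-/- pairs, 9 of 9 were higher in spleen on the high-fat diet and 8 of 9 on the control diet, with Gata1 at -0.21 as the exception. The share of all features higher in spleen in a single pair is not given here.

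The calls near the threshold depended on single arrays. Slc4a1 moved to 0.38 without HDC-/- spleen on the high-fat diet, and Gata1 to 0.51 without STAT6-/- marrow on the control diet and to 0.44 without HDC-/- marrow on the high-fat diet. Without the HDC-/- spleen array on the control diet, Slc4a1 differed by 1.47 (adjusted p 0.0096 by limma) and Rhd by 1.42 (adjusted p 0.0462). Without the HDC-/- marrow array on the control diet, Rhd differed by 1.54 (adjusted p 0.0122) and Gata1 by 1.16 (adjusted p 0.0149), and both also passed without STAT6-/- marrow on the high-fat diet (adjusted p 0.038 and 0.0464). Rhd also passed without WT spleen on the control diet (adjusted p 0.0489) and without STAT4-/- spleen on the high-fat diet (adjusted p 0.032). Rhag was lost, with limma adjusted p of 0.0514 to 0.0671 and changes of 1.18 to 1.51, without any of 6 arrays: WT spleen on the high-fat diet, STAT4-/- spleen on the control diet, HDC-/- spleen on the high-fat diet, and the control-diet marrow of WT, STAT4-/- and STAT6-/-. Rhag was also lost with another background correction (0.77, adjusted p 0.083).

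**Figure D2:**
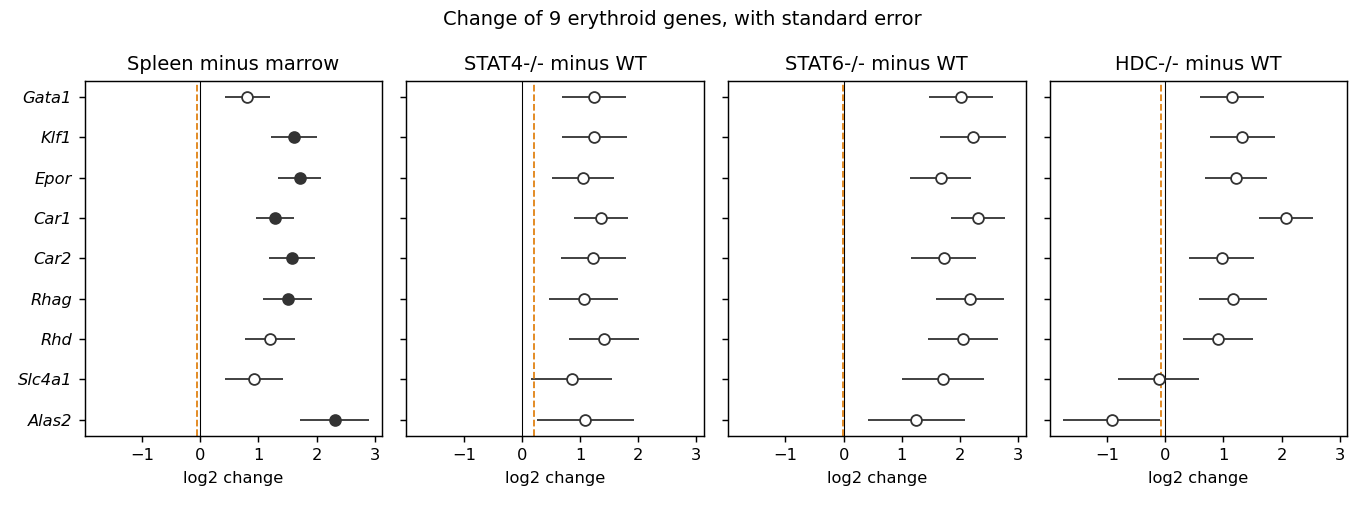
Change of each of the 9 genes (log2, points) with its standard error (bars) for spleen minus marrow and for each knockout minus WT over both tissues; filled points passed an adjusted p of 0.05, and the dashed line is the median of all 28783 features. The 6 filled points are all in the tissue comparison, and Alas2 and Slc4a1 lie left of 0 only for HDC-/-.

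Among genes that work with the 9, haem synthesis had 5 of 11 genes higher in spleen and none lower (median 0.67). Alad, the second enzyme of the pathway, rose by 1.87 (SE 0.29, adjusted p 0.0017) and Fech, which puts iron into haem, by 0.93 (SE 0.24, adjusted p 0.0166). Of 10 globin genes tested, 6 were higher and 1 lower. The adult beta globin Hbb-bs rose by 2.88 (SE 0.64, adjusted p 0.0088) and Hbb-b2 by 2.00 (SE 0.51, adjusted p 0.0155), while the embryonic Hbb-bh1 fell by 0.86 (adjusted p 0.0123, limma). The adult globin genes are near-identical copies, so their probes may share signal.

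Red cell membrane genes had 3 higher and 1 lower of 18 (Tspan33 1.86, Add2 1.27, Gypc 1.12, Sptb -1.04), a share of higher calls near the 14.9% of all features, and late maturation genes 5 higher and 2 lower of 11, among them Ube2o, a ubiquitin enzyme that clears proteins from reticulocytes (1.58, adjusted p 0.0014). Erythroid factors and cofactors had 2 higher and 3 lower of 12, beside 14.9% and 17.1% of all features: the gamma-globin repressor gene Bcl11a rose by 1.93 (adjusted p 0.0045) and the progenitor factor gene Myb had a change of -1.73 (adjusted p 0.0012, limma). Bcl11a is also a B cell factor. Of 10 genes of erythropoietin receptor signalling, Cish, a target that feeds back on the receptor, was the only one higher (1.29, adjusted p 0.0085), and Bcl2l1 (-0.87) and Stat5b (-0.53) were lower. Iron uptake had 1 of 7 higher, the iron transporter gene Slc11a2 (1.30, adjusted p 0.0106).

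Markers of other cells moved with the tissue as well, where 17.1% of all features were lower in spleen. Red pulp macrophage markers had 5 of 10 higher in spleen, led by Spic (3.93, adjusted p 0.0015), the factor that defines these red-cell-clearing macrophages. Lower in spleen were 4 of 12 megakaryocyte and platelet genes, 4 of 6 eosinophil genes, 5 of 9 neutrophil genes, 8 of 10 cell cycle genes, 3 of 8 basophil and mast cell genes (Cma1 was higher) and Itgam (-1.30, SE 0.30, adjusted p 0.0095). Of 10 pro-B and pre-B cell genes 5 were lower and 3 higher. The list means of macrophage markers were 0.07 to 1.56 on the spleen arrays and -1.21 to 0.86 on the marrow arrays, of cell cycle genes 0.49 to 2.59 and 2.58 to 3.00, and of neutrophil genes 3.78 to 6.54 and 5.74 to 6.64. Platelet genes averaged -3.03 to -1.80 and -2.25 to 0.48, eosinophil genes -0.98 to 2.01 and -0.02 to 2.98, basophil and mast cell genes -2.78 to -1.03 and -2.13 to -0.09, and pro-B and pre-B genes -3.18 to -2.21 and -4.13 to 1.57, and the ranges of all 7 lists overlapped between the tissues. The part of these cells in the tissue difference of the 9 genes was not tested.

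STAT6-/- spleen had the highest levels of these genes, on the control diet for all 9. On the control diet the deposited signal was 13458 for Gata1, 12523 for Klf1, 5890 for Epor, 58510 for Car2 and 22533 for Rhd, and on the high-fat diet it was 12016, 11259, 5825, 44596 and 15429 in that order. In WT spleen the signals of those genes were 2005, 1176, 795, 9931 and 2654 on the control diet and 2935, 2735, 1667, 21883 and 7028 on the high-fat diet. STAT6-/- spleen was thus above WT spleen on either diet for these 5 genes, in signals not scaled between arrays. Alas2 went the other way on the high-fat diet, with a signal of 9443 in STAT6-/- spleen and 11762 in WT spleen. On the scaled levels, both STAT6-/- spleen arrays were above the other 6 spleen arrays for 8 of the 9 genes, the exception being Alas2, and 2.61% of all features had this order. The STAT6-/- control array exceeded the highest of those 6 by 3.80-fold for Klf1, 2.90-fold for Car1, 2.76-fold for Rhag and 2.04-fold for Alas2.

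In the test over both tissues, none of the 9 genes passed for STAT6-/- against WT, where 0.0313% of all features were called, 0.0139% as higher. Their changes ran from 1.24 for Alas2 (SE 0.83, adjusted p 0.893) to 2.31 for Car1 (SE 0.46, 4.95-fold, adjusted p 0.254), with 2.22 for Klf1, 2.17 for Rhag, 2.05 for Rhd and 2.02 for Gata1. All 9 were positive, with a median of 2.02 against -0.01 for all features. An unadjusted limma p under 0.05 was found for 8 of them, and for 1971 of the 28783 features. The smallest adjusted p of the 9 with any array left out was 0.056, for Car1. Alas2 moved to 0.39 and Slc4a1 from 1.71 to 1.11 without STAT6-/- spleen on the control diet, and Alas2 to 2.1 without STAT6-/- spleen on the high-fat diet. Of the other lists, red cell membrane genes had a median of 1.45 (17 of 18 positive), haem synthesis 0.67 and eosinophil markers 1.45 (6 of 6 positive), and none of their genes passed.

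Whether the STAT6-/- difference was larger in spleen than in marrow was tested as well. For the 9 genes this difference ran from -0.19 (Alas2) to 1.80 (Epor, SE 1.06, adjusted p 0.407), and none passed. The median of all features was 0.43, and 7.45% of them were called, 7.42% as higher and 0.0208% as lower. Of 158 genes in all lists, the 9 included, Erfe (3.29, SE 0.47, adjusted p 0.0233), the hormone by which red cell precursors lower hepcidin, and Trim58 (2.38, SE 0.63, adjusted p 0.0486), which acts in enucleation, passed. Both were dim, at -7.38 to -3.76 and -6.63 to -4.00 over the 16 arrays, and with array medians, quantile normalization, another background correction or an intensity trend no feature was called in this comparison. Slide and the comparison of STAT6-/- with WT cannot be told apart.

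In HDC-/- spleen on the control diet Alas2 and Slc4a1 were low, while the regulators lay within the range of the other spleen arrays. Its Alas2 signal was 158, against 5541 in HDC-/- spleen on the high-fat diet and 3651 in WT spleen on the control diet. Its Slc4a1 signal was 341, against 7121 and 2731. Its Gata1 signal of 2974 lay near the 3307 and 2005 of the same arrays, and its Klf1 signal of 1806 between 2983 and 1176. On the scaled levels Alas2 was 23-fold and Slc4a1 7.94-fold below the next lowest spleen array, while Gata1, Klf1, Epor and Car1 lay inside the range of the other spleen arrays and Car2, Rhag and Rhd were 1.03-fold to 1.26-fold below it. This array was thus the lowest of 8 spleen arrays for 5 of the 9 genes, as it was for 13.6% of all features.

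The mean of Alas2 and Slc4a1 minus the mean of the other 7 genes was -3.05 in HDC-/- spleen on the control diet. It was -1.79 in HDC-/- marrow on the control diet and 0.15 to 1.90 on the other 14. The genes were split after their levels were seen, so this difference is a description and no separate support. Of 10 globin genes, 6 were below all other spleen arrays in HDC-/- spleen on the control diet, and 1 was above them all. The 5 adult globin genes averaged 0.70 in HDC-/- spleen on the control diet and 4.77 to 5.78 on the 7 other spleen arrays. Hbb-bs read -3.79 there (1.31 to 3.43 elsewhere in spleen) and Hba-a1 1.62 (5.65 to 6.61).

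Of 18 red cell membrane genes, 12 were below all other spleen arrays there, with Tmod1 at -8.73 and Epb42, which binds band 3, at -5.19. Of 11 late maturation genes 6 were below all others, with Trim10 at -3.63, and of 11 haem synthesis genes 7. Erythroid factors were 2 of 12 below and 2 of 12 above. Markers of other cells differed on this array as well: Itgam read 3.13, its lowest on the 16 arrays, and 7 of 9 neutrophil, 3 of 6 eosinophil and 6 of 10 cell cycle genes were below all other spleen arrays. Macrophage genes were 3 of 10 above and none below, with the highest list mean of the 16 arrays (1.56), and platelet genes 4 of 12 above and none below. The share of all features above all other spleen arrays there is not given here. The neutrophil markers averaged 3.78 there and 4.86 to 6.54 on the other spleen arrays. The part of these in the low Alas2 and Slc4a1 was not tested.

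**Figure D3:**
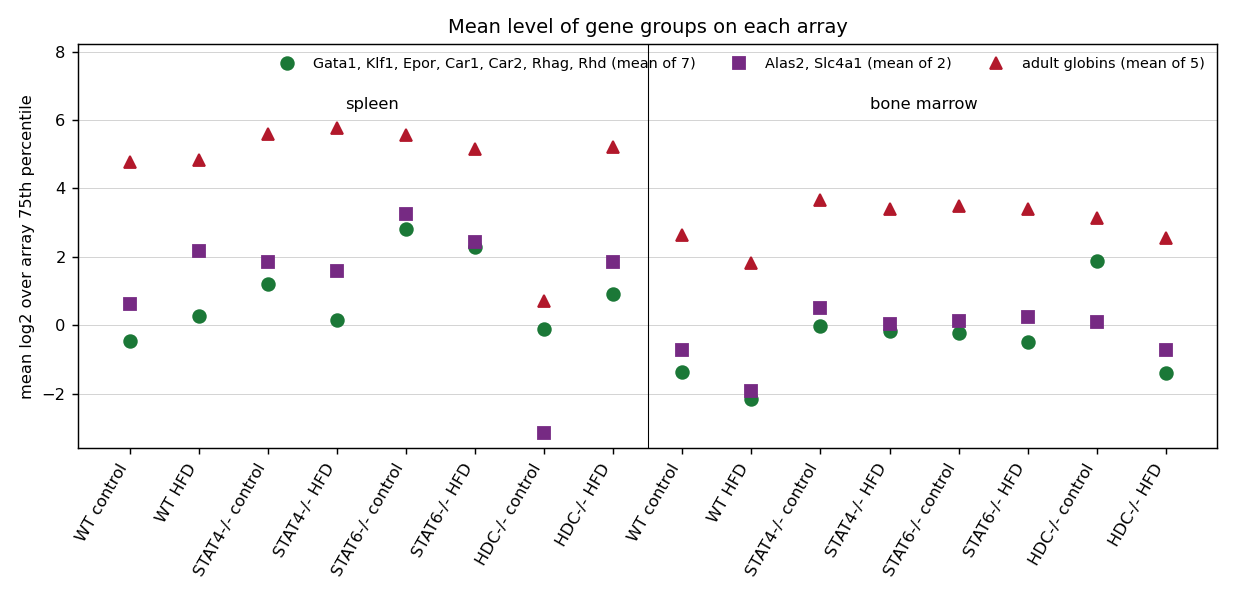
Mean level (log2, 75th percentile of the array at 0) of 7 of the genes (circles), of Alas2 and Slc4a1 (squares) and of 5 adult globin genes (triangles) on each of the 16 arrays, 1 point per array. In HDC-/- spleen on the control diet the squares fall to -3.15 and the triangles to 0.70 while the circle is at -0.09.

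HDC-/- marrow on the control diet was the highest of the 8 marrow arrays for 7 of the 9 genes, all but Alas2 and Slc4a1, and 17.4% of all features had it as their highest marrow array. Gata1 read 2.68 there and -1.41 to 1.77 on the other marrow arrays, Car1 2.43 against -1.98 to 0.05, and Epor 0.87 against -3.00 to -1.34. Car1 was thus 5.20-fold and Epor 4.62-fold above the next marrow array. Alas2 (-0.73) and Slc4a1 (0.92) lay inside the range of the others, -2.65 to 0.10 and -1.20 to 0.95. The adult globins averaged 3.14 there, inside the 1.81 to 3.67 of the other marrow arrays. Above every other marrow array were 12 of 18 red cell membrane genes and 9 of 12 erythroid factors. So were 5 of 11 haem synthesis genes and 4 of 11 late maturation genes. In these lists 3, 2, 2 and 3 genes were below every other marrow array, as were 3 of 10 globins.

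Markers of other lineages were also high on that array. All 10 pro-B and pre-B cell genes, 9 of 12 megakaryocyte and platelet genes, 6 of 8 basophil and mast cell genes and 8 of 10 macrophage genes were above every other marrow array. Pro-B and pre-B genes averaged 1.57 there and -4.13 to -0.60 on the others, and platelet genes 0.48 against -2.25 to -0.87. Itgam (4.74) and 7 of 9 neutrophil genes were below all other marrow arrays. The share of all features below every other marrow array there is not given here. Gata1 is also a factor of megakaryocytes, mast cells and eosinophils, and the part of these cells in its level was not tested. Both HDC-/- control arrays are among the 4 without Y-linked signal, and sex-linked signal, diet and array cannot be told apart in this genotype.

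**Figure D4:**
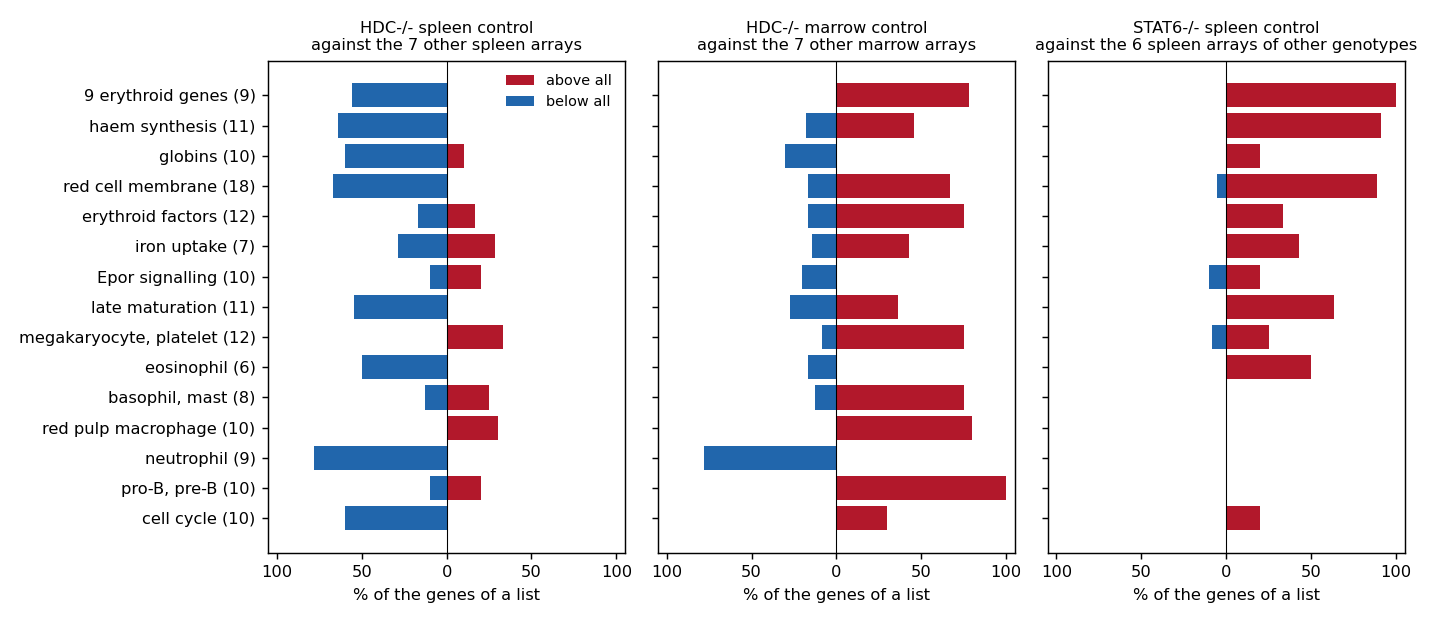
Share of the genes of each list (number of genes in parentheses, % on the horizontal axis) that lay above (red, right) or below (blue, left) all compared arrays of the same tissue, for 3 arrays. On the HDC-/- spleen array 12 of 18 red cell membrane genes are below all others, and on the HDC-/- marrow array all 10 pro-B and pre-B genes are above.

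In the test over both tissues, none of the 9 genes passed for HDC-/- against WT, where 0.153% of all features were called, 0.0521% as higher. Car1 came nearest with 2.07 (SE 0.46, 4.21-fold, adjusted p 0.149). Klf1 (1.33), Epor (1.22), Rhag (1.16), Gata1 (1.15), Car2 (0.97) and Rhd (0.91) were positive, and Slc4a1 (-0.11) and Alas2 (-0.92, SE 0.83, adjusted p 0.736) were negative. Without HDC-/- marrow on the control diet the positive changes shrank to 1.43 for Car1, 0.56 for Klf1, 0.52 for Rhag, 0.43 for Epor, 0.43 for Gata1, 0.23 for Rhd and 0.20 for Car2. Without the HDC-/- spleen array on the control diet, Alas2 read 0.41 and Slc4a1 0.98, and without that on the high-fat diet Alas2 read -2.25, Slc4a1 -1.21, Rhag 0.62, Car2 0.60 and Rhd 0.46. Rhd read 0.54 without WT spleen on the control diet. Slc4a1 also turned to 0.0025 without WT spleen on the high-fat diet and to 0.017 without WT marrow on the control diet. Without HDC-/- marrow on the high-fat diet, 2 genes passed, Car1 with 2.71 (adjusted p 0.0211, limma) and Epor with 2.01 (adjusted p 0.0466), and Klf1 (2.09), Gata1 (1.87), Rhag (1.81), Car2 (1.74) and Rhd (1.59) were larger as well.

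The HDC-/- difference was not shown to differ between tissues for any of the 9 genes, where 16.4% of all features were called higher and 0.0243% lower with a median of 0.58. All 9 values were negative, led by Alas2 (-3.26, SE 1.67, adjusted p 0.244) and Slc4a1 (-2.83, SE 1.40, adjusted p 0.224). Without the HDC-/- spleen array on the high-fat diet, when the control array stands alone for that tissue and is assumed to vary like the others, these became -5.92 (adjusted p 0.0154, limma) and -5.01 (adjusted p 0.0157). Without the control array they were -0.61 and -0.64. Without HDC-/- marrow on the high-fat diet, when the marrow control array stands alone in the same way, 4 of the 9 genes were called lower (Car1, Car2, Klf1 and Epor), as were 0.677% of all features, with 20.2% called higher. Alas2 (-3.34, adjusted p 0.282) and Slc4a1 (-3.05, adjusted p 0.237) did not pass then. Without HDC-/- spleen on the high-fat diet the 2 genes called lower compare with 0.142% of all features.

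For the arrays labelled STAT4-/- none of the 9 passed against WT, where 0.0174% of all features were called, 0.0104% as higher, and all 9 were positive. The changes ran from 0.86 (Slc4a1) to 1.40 (Rhd, SE 0.60, adjusted p 0.493), with 1.36 for Car1 (SE 0.46, adjusted p 0.448). Without STAT4-/- spleen on the control diet Slc4a1 read 0.24, Alas2 0.60, Rhag 0.65 and Rhd 0.91, and Slc4a1 read 1.47 without that on the high-fat diet. Rhag read 0.42 and Klf1 0.80 without STAT4-/- marrow on the high-fat diet, and Rhag 1.70 without that on the control diet. The median of all features was 0.20, and scaling by array medians lowers every change of this comparison by 0.16. WT arrays enter all 3 genotype comparisons, so the positive signs in common are not independent. In WT marrow the mean of the 9 genes was -1.22 and -2.11 on the control and high-fat diet.

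Did the high-fat diet move these genes? None of the 9, and none of the 28783 features, was called by limma in spleen or in marrow (0% in each tissue), and 1302 and 1737 features had an unadjusted p under 0.05. In marrow all 9 changes were negative, from -1.66 for Gata1 (SE 0.55, unadjusted p 0.0122, adjusted p 0.698) to -0.45 for Rhag (SE 0.59, adjusted p 0.811), with a median of -1.04 against 0.11 for all features. In spleen they ran from -0.31 (Gata1) to 1.38 for Alas2 (SE 0.83) and 1.34 for Slc4a1 (SE 0.70), with a median of 0.04 against 0.15. The difference of the diet effect between tissues was largest for Alas2 at 2.12 (SE 1.18, adjusted p 1), and no feature was called (0%).

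Of the marrow pairs, that of HDC-/- mice differed most for 7 of the 9 genes, and that of WT for Alas2 (-1.57) and Slc4a1 (-0.85). Between the control and the high-fat array Gata1 read 2.68 and -1.15, Klf1 1.57 and -1.93, Epor 0.87 and -2.54 and Rhd 2.73 and -0.76, differences of 10.7-fold to 14.2-fold with no test for a single pair. In WT marrow all 9 were lower on the high-fat diet, with a median difference of -0.85. In STAT4-/- and STAT6-/- marrow 6 of 9 were lower, with medians of -0.09 in each. Car2, Epor and Slc4a1 were lower in 4 of 4 marrow pairs, as were 4.75% of all features. Without HDC-/- marrow on the control diet the marrow change of Gata1 was -0.94 and that of Epor -0.25, and Rhag turned to 0.20 without either HDC-/- marrow array. The control arrays of STAT4-/- and HDC-/- marrow lack Y-linked signal, unlike their high-fat partners, and the part of this in the changes was not tested. With the WT and STAT6-/- arrays alone, the marrow change of Gata1 was -0.45.

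The spleen pairs went both ways. For single diet pairs of either tissue, the share of all features going the same way is not given here. In WT spleen 8 of the 9 were higher on the high-fat diet, by up to 1.69 for Slc4a1, with Car1 at -0.12. In STAT4-/- and STAT6-/- spleen all 9 were lower, with medians of -1.10 and -0.52. In STAT4-/- spleen, Itgam was 6.05 on the high-fat array (3.13 to 4.97 on the other spleen arrays), and this array also had the highest neutrophil (6.54) and cell cycle (2.59) means in spleen. Its control partner is one of the 4 arrays without Y-linked signal, and the part of either in the change was not tested. In HDC-/- spleen 8 were higher, Alas2 by 5.37 (41.2-fold) and Slc4a1 by 4.61 (24.5-fold), with Epor at -0.11. No gene was higher in 4 of 4 spleen pairs, against 7.01% of all features. Without the HDC-/- control array the spleen change of Alas2 was 0.06 and that of Slc4a1 0.25. The small spleen changes turned in sign with single arrays left out: Car1, Epor and Gata1 without either STAT4-/- array (0.11, 0.10 and 0.045), Car1 also without either STAT6-/- array (0.058), and Car2, Klf1 and Rhd without either WT array (-0.24, -0.24 and -0.32) or either HDC-/- array (-0.33, -0.24 and -0.41).

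**Figure D5:**
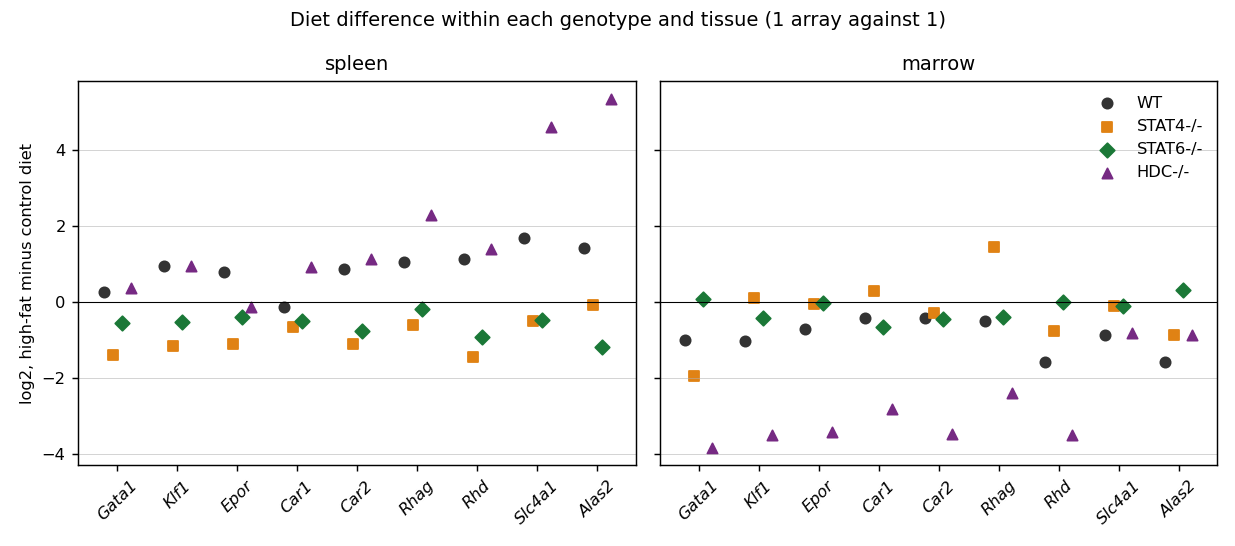
Difference between the high-fat and the control array (log2) for each of the 9 genes in spleen (left) and marrow (right), 1 point per genotype. The HDC-/- triangles reach 5.37 for Alas2 in spleen and -3.83 for Gata1 in marrow, and the WT and STAT6-/- points in spleen lie on opposite sides of 0 for 8 of the 9 genes.

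The diet effect was compared between each knockout and WT over both tissues. None of the 9 genes passed in any of the 3 comparisons, where 0% (STAT4-/-), 0% (STAT6-/-) and 0.00695% (HDC-/-) of all features were called. For HDC-/- the values ran from -1.81 for Epor (SE 0.98, adjusted p 0.482) to 2.33 for Alas2 (SE 1.53, adjusted p 0.544), with 1.49 for Slc4a1 and -1.37 for Gata1. The 2 features called there are the Y-linked genes Ddx3y and Eif2s3y. For STAT4-/- the 9 values ran from -1.30 to 0.15 and for STAT6-/- from -0.82 to 0.14, against medians of 0.13 and -0.18 over all features.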

How the data were processed

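CD11b+ cell RNA was hybridised to 16 one-colour Cy3 arrays. Per the file headers, the deposited intensity values (processed signal of each spot, background-subtracted) were made with Agilent Feature Extraction 11.0.1.1, with no scaling between arrays. The build named in the file headers differs from that of the promoter table, so coordinates are given only for promoters, on the build of that table. Of 43020 spots that are not controls, 71.4% were named through RefSeq or Ensembl accessions. From these intensities, log2 minus the 75th percentile of each array was computed; 305 probes with a marked spot were left out, and the brightest probe of each gene was kept if well above background on 2 or more arrays (28783 features, 18670 named). No spot was saturated, and the median signal of the arrays ran from 74 to 183.9. Named-gene rule: all 9 genes, up to 4 called genes of each list, and the 10 best correlated genes, of which some are not reported here; examples beyond it were chosen after their values were seen.

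limma 3.58.1 in R 4.3.3 fitted 8 genotype-by-tissue means plus 1 diet effect for spleen and 1 for marrow (6 residual degrees of freedom), and all pairwise terms for diet by genotype (3), two-sided, with p-values adjusted after Benjamini-Hochberg across the 28783 features. Genes, lists and alternatives were chosen with earlier results of these data known. The test was also run on simulated data. Alternatives changed scaling, background, filter, probe, prior, slide, model, pairing and arrays. Normexp (offset 50) used median spot signals. Promoters were searched in RefSeq sequences of GRCm38.p6.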

Additional observations from a re-analysis of the deposited data

Results flagged for a closer look

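In each tissue and diet the 4 genotypes were screened for a single array far from the others, 36 groups of 4 arrays for the 9 genes. Chance marks about 1 in 20 such groups, and 2 were marked, so the number is about what chance gives. The groups are also not independent, since the 9 genes correlate over the arrays. Epor read 1.40 in STAT6-/- spleen on the high-fat diet, and -0.71 to -0.40 in the other 3 genotypes. Slc4a1 read -0.35 in WT marrow on the control diet, and 0.92 to 0.95 in the other 3.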

How the results depend on the processing

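Over 29 settings, 1601 values of the 9 genes were compared with those reported: 1532 kept direction and side of the threshold, 9 no longer passed, 21 newly passed and 39 changed sign. The number of genes called higher in spleen was 4 to 9 of 9, and 4 with spleen and marrow arrays of the same genotype and diet as pairs, an alternative chosen after seeing the data. Pairing arrays by replicate number was not possible, because no combination was repeated. The diet effect is already estimated within each genotype and tissue.

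Changes of sign in spleen on the high-fat diet were small: with array medians Car2 read -0.038, Klf1 -0.016 and Rhd -0.030, and with the WT and STAT6-/- arrays alone, or without the 4 control arrays lacking Y-linked signal, Epor read 0.21. Without STAT4-/- spleen HFD and HDC-/- marrow control, the arrays nearest the other tissue, Car1 read 0.11, Epor 0.10 and Gata1 0.045, and Rhag 0.20 in marrow. Without the 4 control arrays, HDC-/- against WT was 0.33 for Alas2 and 0.80 for Slc4a1. Leaving out each array in turn, the spleen diet change was -0.41 to 0.11 for Car1, -0.33 to 0.42 for Car2, -0.24 to 0.46 for Klf1, -0.41 to 0.54 for Rhd, -0.53 to 0.10 for Epor and -0.54 to 0.045 for Gata1, the marrow change of Rhag -1.08 to 0.20, HDC-/- against WT -2.25 to 0.41 for Alas2 and -1.21 to 0.98 for Slc4a1, and diet by HDC-/- -0.41 to 5.06 for Alas2.

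Features called, with arrays left out in turn, were 5760 to 10715 for tissue, 3 to 8 for STAT4-/-, 3 to 16 for STAT6-/-, 7 to 237 for HDC-/-, 0 to 3031 and 0 to 5997 for the tissue difference of STAT6-/- and HDC-/-, and 0 to 2 for diet by HDC-/-. Members called were 0 to 2 for HDC-/- and 0 to 4 for its tissue difference. For the tissue difference of STAT6-/-, 0 features were called under quantile normalization, array medians, normexp, the intensity trend, WT and STAT6-/- alone, and without the 4 control arrays. For that of HDC-/-, it was 0 under quantile normalization, normexp and without the 4 control arrays, 2052 with array medians and 2214 without the arrays nearest the other tissue. For diet by HDC-/-, it was 1 under quantile normalization, 8 with array medians and with the filter of 8 arrays, 52 under normexp, 96 with the trend and 0 without the arrays nearest the other tissue. For diet by STAT4-/-, it was 5 under normexp and 3 with the filter or the trend. Without the 4 control arrays, counts were 3818 for tissue, 2 for STAT4-/- and 4 for HDC-/-. The trend gave 8, 15 and 69 for STAT4-/-, STAT6-/- and HDC-/-, normexp 23 and the arrays nearest the other tissue 19 for HDC-/-, and genotype terms shared by the tissues 18 for STAT4-/-, or 17 with slide as a random block. The causes were not tested.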
